A study of Mus musculus with 6 samples.

Results

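Polycomb repressor genes encode the chromatin complexes that hold developmental and cell cycle inhibitor genes silent. Their RNA was read here in sorted adult mouse hematopoietic stem cells (HSCs) by 28 probe sets of 10 genes, out of 45037 probe sets tested and 18193 genes that had a probe set of their own. The members were every probe set whose only platform gene symbol was Bmi1, Rnf2, Ring1, Cbx2, Cbx7 or Cbx8 of Polycomb repressive complex 1 (PRC1), or Ezh2, Ezh1, Eed or Suz12 of Polycomb repressive complex 2 (PRC2). No member of either complex differed between the groups after adjustment over all probe sets. The 3 largest differences relative to their error were a higher reading of 1 of 4 Ezh1 probe sets and a lower reading of 2 of 6 Suz12 probe sets in PU.1 ki/ki cells, at unadjusted p only.

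RNA from 6 cell samples was hybridised to single-colour Affymetrix arrays, 3 of PU.1 ki/ki (PU.1 knock-in) mice and 3 of wild type (WT) mice, all adult by the labels. Both groups were sorted with the same surface gate for long-term HSCs, which keeps cells without lineage markers or CD48 and with Sca1, cKit and CD150. The comparison asked which transcripts differ when the gene of PU.1, an ETS transcription factor of blood cells encoded by Spi1, carries the knock-in allele. The labels give neither the change that the knock-in makes, the strain and sex of the mice, nor whether a replicate is 1 animal or a pool. The p-values therefore cover only how far these samples varied, part of which may be technical. Intensities are the deposited values, with a table minimum of 10, and differences are in log2(intensity + 1), PU.1 ki/ki minus WT.

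PRC2 places methyl groups on lysine 27 of histone H3. Ezh2 or Ezh1 is its catalytic subunit, Eed binds the finished mark and stimulates the enzyme, and Suz12 holds the core together. PRC1 attaches ubiquitin to histone H2A through the RING proteins Rnf2 (Ring1B) and Ring1 (Ring1A), whose activity depends on a partner such as Bmi1, and a CBX protein anchors canonical PRC1 to the mark of PRC2. In blood, Bmi1 is known for sustaining HSC self-renewal, in part by silencing the Cdkn2a locus, Ezh2 is linked to dividing cells and Ezh1 to resting ones. Different CBX proteins are known to favour self-renewal (Cbx7) or differentiation (Cbx2, Cbx8) of HSCs.

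The promoter windows that RefSeq tables give for 9 of the 10 genes (GRCm38.p6, 250 bases before to 50 after the start) were rich in CpG. They held 17 to 41 CpG dinucleotides, with a median of 30, beside a median of 7 over all 32851 windows, and 31.4% of all windows held at least 17. Their G+C content was 54.7 to 74.0%, beside a median of 52.7%. The PU.1 core letters GAGGAA were present on either strand in 4 of the 9 windows, those of Cbx8, Ezh2, Eed and Suz12, and in 28.3% of all windows. The longer PU.1 letters GAGGAAGT, which contain that core, were in 0 of 9 (3.2% of all), and the general ETS letters CCGGAAGT in 0 of 9 (3.89% of all). Of the E2F letters, TTTGGCGC was in the Ezh2 window alone among members (0.514% of all) and TTTCGCGC in none (0.323% of all). The 5 matches are shown because the arrays compare alleles of the gene of PU.1 and because Ezh2 is tied to cell division. Each is written 5′ to 3′ on the gene's strand with the match in capitals, where TTCCTC is the core on the opposite strand. A match is a string of letters and no measurement of binding.
Cbx8, chr11:119040982-119041011, minus strand: cacgtggggcggGAGGAAgcgctgggaggg
Ezh2, chr6:47595203-47595232, minus strand: cagcaagccgcgTTCCTCagagcgagccct
Ezh2 E2F letters, chr6:47595009-47595038, minus strand: gggttgctgcgTTTGGCGCtcggtccggtc
Eed, chr7:89981024-89981053, minus strand: ggtgacttctctTTCCTCccccctccctcg
Suz12, chr11:79993126-79993155, plus strand: gaggagacactttttttttTTCCTCcctcc

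WT replicates 2 and 3 stood apart from the other 4 arrays. Of probe sets with a median of at least 512 on the other 5 arrays, 11.5% and 11.3% lay 4-fold or more below that median on these arrays, beside 0.119 to 1.12% elsewhere. The Gapdh control probe sets gave a 3′ over 5′ quotient of 6.11 and 6.68 on them, and 2.98 to 4.75 on the others. The beta-actin control did not set both apart: its quotient was 0.919 on WT replicate 2, within the 0.879 to 0.964 of the other 4, and 0.437 on WT replicate 3. Spi1, the gene of PU.1, read 170, 212 and 161 in PU.1 ki/ki and 158, 195 and 199 in WT (difference -0.03, adjusted p = 0.992), which does not check the labels. Of the sort and stem cell markers, 12 of 14 were measured, 8 higher and 4 lower (median 0.45, and 0.41 without WT replicates 2 and 3). Their summed intensity was 10485 to 13012 in PU.1 ki/ki and 8670 to 10323 in WT. Slamf1, which encodes CD150, read 54 and 42 on WT replicates 2 and 3 and 170 to 1525 on the others. Kit and Procr were instead higher on WT replicates 2 and 3 than on WT replicate 1. Kit read 617, 452 and 1368 in PU.1 ki/ki and 374, 1622 and 1001 in WT. Procr read 420, 621 and 502 against 332, 1097 and 1287. Tek alone had no overlap, at 722, 730 and 523 against 321, 341 and 291 (1.04 ± 0.18 SE, adjusted p = 0.430).

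Across the 28 member probe sets, 3 had an unadjusted p under 0.05 (limma), 1 of them positive and 2 negative, where 8.28% of all probe sets did (4.6% higher, 3.68% lower). After adjustment 0 of 28 passed, as did 0% of all probe sets, and the members' adjusted p ran from 0.463 to 1. The same 3 were the members whose 3 values in one group all lay outside those of the other, and 12.1% of all probe sets had no overlap (6.62% higher, 5.46% lower). A count of 3 in 28 is near both background shares. The difference was positive for 13 member probe sets and negative for 15, with a median of -0.028 beside 0.0021 for all probe sets. The spread was wider in WT than in PU.1 ki/ki for 21 of the 28, and for 71.7% of all probe sets.

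**Figure D1:**
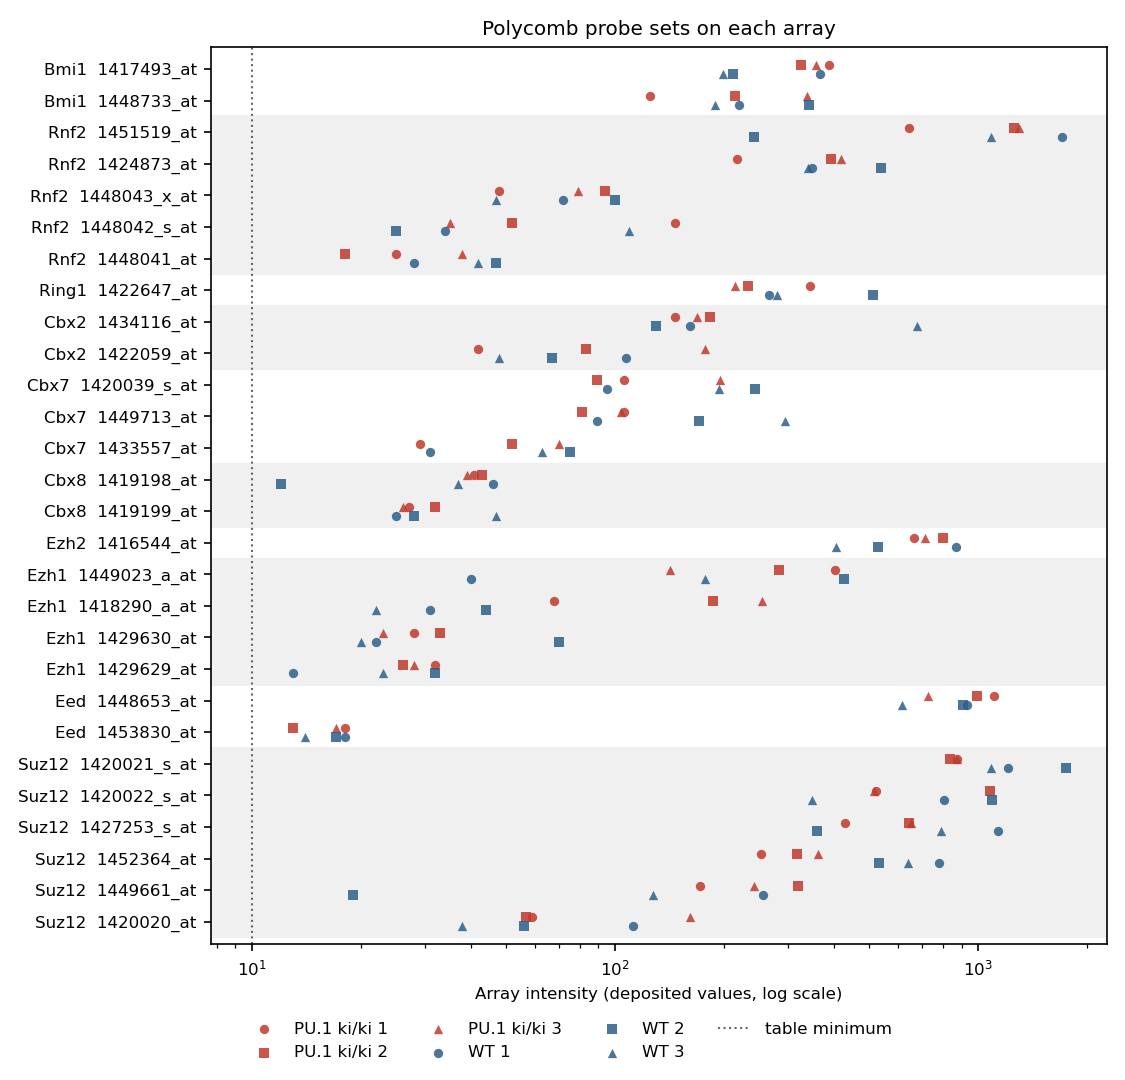
Intensity of each Polycomb probe set (rows, grouped by gene) on each of the 6 arrays, on a log axis, with PU.1 ki/ki in red, WT in blue and the replicate number as marker shape. Values run from 12 to 1749; the groups separate for Ezh1 1418290_a_at and for Suz12 1420021_s_at and 1452364_at only, and single WT arrays lie far out for Rnf2 1451519_at, Cbx2 1434116_at, Ezh1 1449023_a_at and Suz12 1449661_at.

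Among the PRC1 genes, 0 of 15 probe sets separated the groups, beside 12.1% of all probe sets. Bmi1, the partner that stimulates the RING ligase, read 388, 325 and 357 in PU.1 ki/ki and 367, 211 and 198 in WT on its brighter probe set, 1417493_at. WT replicate 1 read like the knock-in arrays and WT replicates 2 and 3 lay below them. The difference was 0.52 ± 0.28 (SE, 95% interval -0.20 to 1.23, adjusted p = 0.663), and it was -0.045 without WT replicates 2 and 3. Its other probe set, 1448733_at, read 125, 214 and 337 against 220, 342 and 189, and the groups overlapped throughout (-0.22 ± 0.44, adjusted p = 0.910). Both readings of Bmi1 thus came with opposite signs.

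Rnf2, the main catalytic RING protein of PRC1, was read by 5 probe sets whose differences ran from -0.55 to 0.50. The brightest, 1451519_at, read 644, 1257 and 1299 in PU.1 ki/ki and 1702, 241 and 1082 in WT. WT replicate 1 was the highest of all 6 arrays and WT replicate 2 the lowest, so the WT values spanned those of PU.1 ki/ki. The difference was 0.41 ± 0.82 (SE, 95% interval -1.67 to 2.50) and -0.42 without WT replicate 2. The second, 1424873_at, read 217, 393 and 420 against 348, 539 and 340 (-0.28 ± 0.35), and here WT replicate 2 was the highest array. The other 3 probe sets, 1448041_at, 1448042_s_at and 1448043_x_at, read 18 to 146 with overlap. An _s_at or _x_at probe set can detect more than 1 transcript, so the identity of 1448042_s_at and 1448043_x_at is less certain. The same limit holds for 1420039_s_at of Cbx7 and for 1420021_s_at, 1420022_s_at and 1427253_s_at of Suz12.

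Ring1, the second RING protein, read 344, 233 and 214 in PU.1 ki/ki and 266, 513 and 279 in WT on its only probe set. The groups overlapped, and WT replicate 2 was the highest array (-0.38 ± 0.34 SE, 95% interval -1.26 to 0.50, adjusted p = 0.771). The sign was negative in every alternative fit, and the difference was -0.044 without WT replicates 2 and 3.

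The CBX genes overlapped between groups in all 7 of their probe sets. Cbx7, whose protein is known to favour self-renewal, read 106, 89 and 194 against 95, 243 and 193 on 1420039_s_at, and 106, 81 and 104 against 89, 170 and 294 on 1449713_at. On the latter the PU.1 ki/ki arrays lay close together and WT replicates 2 and 3 above them, with WT replicate 1 among them. Its difference was -0.77 ± 0.46 (SE, 95% interval -1.95 to 0.42, adjusted p = 0.685). The third Cbx7 probe set, 1433557_at, read 29, 52 and 70 against 31, 75 and 63 (-0.15 ± 0.48). All 3 were negative with 3 arrays a group, and all 3 turned positive, at 0.11 to 0.59, without WT replicates 2 and 3.

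Cbx2 and Cbx8 are neighbours on the chromosome, and each was read by 2 probe sets of opposite sign. Cbx2 read 146, 183 and 168 in PU.1 ki/ki and 161, 130 and 678 in WT on 1434116_at. WT replicate 3 alone lay high, while the other 5 arrays held within 130 to 183 (-0.55 ± 0.67 SE, and 0.19 without that array). Its second probe set, 1422059_at, read 42, 83 and 177 against 107, 67 and 48 (0.28 ± 0.61). Cbx8 lay close to the table minimum in both groups. It read 41, 43 and 39 against 46, 12 and 37 on 1419198_at (0.56 ± 0.52), where WT replicate 2 alone lay low. On 1419199_at it read 27, 32 and 26 against 25, 28 and 47 (-0.18 ± 0.27).

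**Figure D2:**
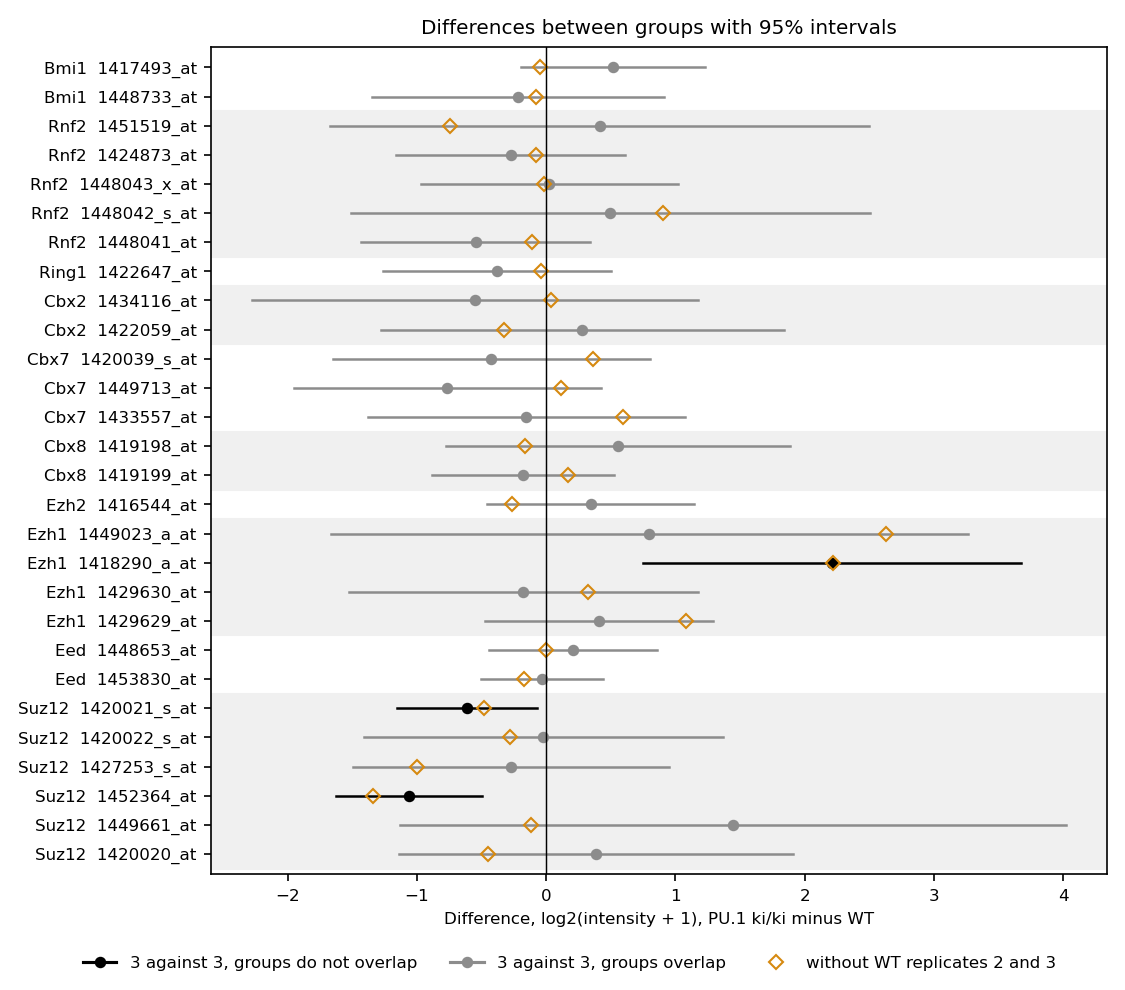
Difference between groups for each Polycomb probe set in log2(intensity + 1), PU.1 ki/ki minus WT, with 95% limma intervals (filled circles, black where the 3 values of each group do not overlap) and the difference without WT replicates 2 and 3 (open diamonds). The interval lies off 0 for Ezh1 1418290_a_at (2.21), Suz12 1420021_s_at (-0.61) and Suz12 1452364_at (-1.06), and for these 3 the diamond stays on the same side.

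Among the PRC2 genes, 3 of 13 probe sets separated the groups, 1 of Ezh1 and 2 of Suz12, beside 12.1% of all probe sets. Counts this small do not tell the 2 complexes apart. Ezh2, the catalytic subunit of dividing cells, read 664, 801 and 716 in PU.1 ki/ki and 869, 530 and 405 in WT on its only probe set. WT replicate 1 was above and WT replicates 2 and 3 below all PU.1 ki/ki arrays, so the groups overlapped. The difference was 0.34 ± 0.31 (SE, 95% interval -0.45 to 1.14, adjusted p = 0.773), and -0.26 without WT replicates 2 and 3. Of 14 proliferation genes 13 were measured, 10 higher and 3 lower (median 0.39, and -0.38 without WT replicates 2 and 3). Their highest median level was on the same WT replicate 1, 0.56 above each gene's mean. WT replicates 2 and 3 were at -0.65 and -0.43, and PU.1 ki/ki replicates ranged over 0.065 to 0.29. Mki67, a proliferation antigen, read 4401, 2728 and 4542 in WT and 4203, 4465 and 5912 in PU.1 ki/ki. The part of cell cycling in the Ezh2 readings was not tested, and in a bulk sample fewer dividing cells and less RNA per cell cannot be told apart. WT replicates 2 and 3 are also the arrays where 11.5% and 11.3% of bright probe sets lay 4-fold or more low. The part of that loss in these readings was not tested either.

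Ezh1, the alternative catalytic subunit of non-dividing cells, gave the largest member difference. Its probe set 1418290_a_at read 68, 186 and 254 in PU.1 ki/ki and 31, 44 and 22 in WT. All 3 PU.1 ki/ki arrays were above all WT arrays, which lay near the table minimum, and the PU.1 ki/ki values themselves were widely spread. The mean was 169 ± 94.1 (SD, n = 3) against 32.3 ± 11.1 (SD, n = 3), and the difference was 2.21 ± 0.57 (SE, 95% interval 0.75 to 3.67, unadjusted p = 0.0114, adjusted p = 0.508). In 15 alternative fits it lay between 1.81 and 2.77, in 14 of them with an unadjusted p under 0.05 and in all with an adjusted p of 0.281 to 0.882.

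The other Ezh1 probe sets did not separate the groups. The brightest, 1449023_a_at, read 403, 283 and 142 in PU.1 ki/ki and 40, 427 and 177 in WT, where WT replicate 1 alone lay low (0.80 ± 0.96 SE, 95% interval -1.67 to 3.26). Its difference was -0.12 without WT replicate 1. Among the PU.1 ki/ki arrays, replicate 1 read highest on 1449023_a_at and lowest on 1418290_a_at. The 2 probe sets thus did not order the PU.1 ki/ki arrays alike. The dim probe sets 1429630_at and 1429629_at read 13 to 70, with differences of -0.18 ± 0.53 and 0.41 ± 0.34.

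Eed, the subunit that reads the methyl mark, was among the steadier members. It read 1108, 995 and 729 in PU.1 ki/ki and 931, 908 and 618 in WT on 1448653_at, with overlap. The difference was 0.21 ± 0.26 (SE, 95% interval -0.45 to 0.86, adjusted p = 0.827), so that a change of 2-fold or more in either direction, 1 on this scale, lies outside the interval. Its second probe set, 1453830_at, read 13 to 18 on all arrays, close to the table minimum.

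Suz12, the scaffold of PRC2, was lower in PU.1 ki/ki at unadjusted p on 2 of its 6 probe sets. On 1452364_at it read 253, 317 and 363 in PU.1 ki/ki and 779, 532 and 640 in WT. All PU.1 ki/ki arrays lay below all WT arrays, and WT replicate 1 was the highest. The mean was 311 ± 55.2 (SD, n = 3) against 650.3 ± 124 (SD, n = 3), and the difference was -1.06 ± 0.22 (SE, 95% interval -1.62 to -0.50, unadjusted p = 0.00464, adjusted p = 0.463), the lowest p of the members. It lay between -1.34 and -0.92 in 15 alternative fits, each with an unadjusted p under 0.05 and an adjusted p of 0.206 to 0.882.

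The brightest Suz12 probe set, 1420021_s_at, read 873, 838 and 872 in PU.1 ki/ki and 1205, 1749 and 1087 in WT. The PU.1 ki/ki values were within a narrow band and all WT values above it (-0.61 ± 0.21 SE, 95% interval -1.16 to -0.07, unadjusted p = 0.0335, adjusted p = 0.578). An unadjusted p under 0.05 was kept in 8 of 15 alternative fits, with adjusted p of 0.299 to 0.897. The difference lay between -0.75 and -0.41 in all 15. Probe set 1420021_s_at is of the _s_at kind, which can detect more than 1 transcript, so its identity is less certain.

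The other 4 Suz12 probe sets overlapped between groups and did not share a sign. Probe set 1420022_s_at read 524, 1077 and 518 against 805, 1091 and 349 (-0.02 ± 0.54), and 1427253_s_at read 431, 644 and 654 against 1132, 359 and 791 (-0.27 ± 0.48). The largest positive Suz12 difference, 1.45 ± 1.01, was that of 1449661_at, which read 171, 320 and 241 against 256, 19 and 127. Its size came with WT replicate 2, which lay at 19 there and was the highest array on 1420021_s_at. Without WT replicates 2 and 3 that difference was -0.12, and all 6 Suz12 probe sets were then negative, from -1.34 to -0.12. With WT replicate 1 as the only WT array, that fit holds no spread between WT arrays. Probe set 1420020_at read 38 to 161 (0.39 ± 0.60).

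**Figure D3:**
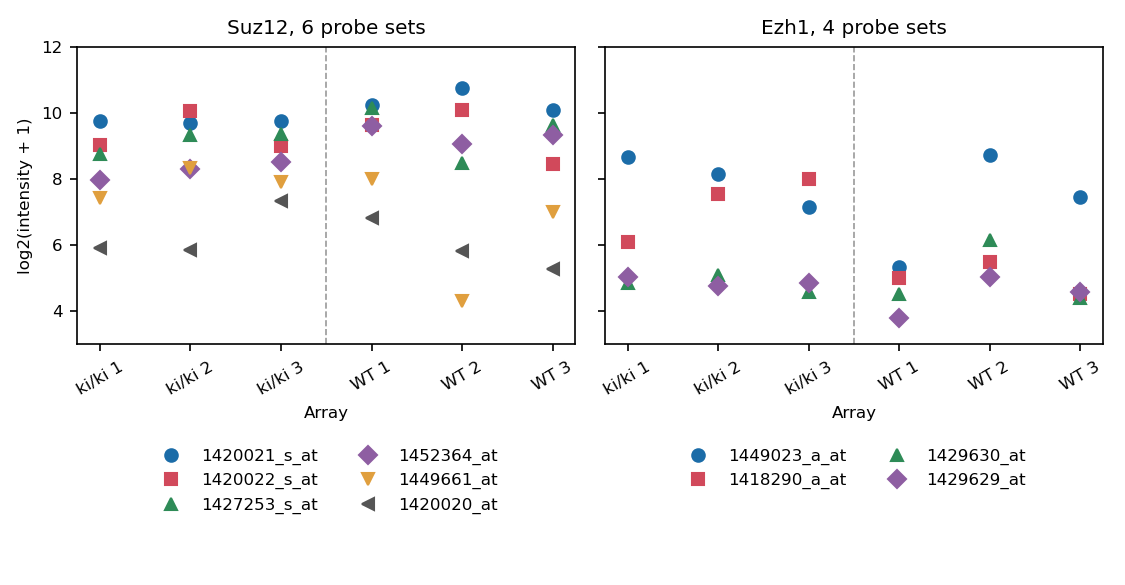
log2(intensity + 1) on each array for the 6 Suz12 probe sets (left) and the 4 Ezh1 probe sets (right), PU.1 ki/ki left and WT right of the dashed line in each panel. Suz12 1452364_at and 1420021_s_at are lower on every PU.1 ki/ki array than on any WT array, 1449661_at drops to an intensity of 19 on WT replicate 2, and of Ezh1 only 1418290_a_at is higher on every PU.1 ki/ki array.

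Probe sets of a gene often pointed in opposite directions. Of the 8 members with more than 1 probe set, 7 had both signs (Bmi1, Rnf2, Cbx2, Cbx8, Ezh1, Eed and Suz12), and Cbx7 was the exception. A member lay 4-fold or more below the median of the other 5 arrays in 3 readings, which were Rnf2 1451519_at and Suz12 1449661_at on WT replicate 2 and Ezh1 1449023_a_at on WT replicate 1. The lowest of the 6 arrays was WT replicate 2 for 6 member probe sets and WT replicate 3 for 8. Of all probe sets with 1 lowest array, these were lowest for 24.2% and 27.8%. WT replicate 2 was also the highest array for 11 of the 26 members with 1 highest array, and WT replicate 3 for 3. Of all probe sets with 1 highest array, these were highest for 21.9% and 23.5%.

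The balance between paralogs was compared within each array, since a ratio there does not depend on scaling that array. The 6 pairs were read on their brightest probe sets, and all overlapped between groups. A two-sided exact permutation test of 3 arrays against 3 cannot go below p = 0.1, so no pair could have passed the threshold. The p-values only give the share of regroupings with a mean difference at least as large. For Ezh1 over Ezh2 the log2 ratio was -0.72, -1.50 and -2.33 in PU.1 ki/ki and -4.41, -0.31 and -1.19 in WT. WT replicate 1 alone lay low (difference 0.46, exact p = 0.9), and the difference was -0.76 without it and 2.89 with it as the only WT array. Rnf2 over Ring1 differed by 0.80 (exact p = 0.7), Cbx7 over Cbx8 by -0.98 (exact p = 0.5), Cbx7 over Cbx2 by 0.13 (exact p = 0.9) and Cbx8 over Cbx2 by 1.11 (exact p = 0.4). Without WT replicates 2 and 3 the sign turned for Rnf2 over Ring1 (-0.70), Cbx7 over Cbx8 (0.53) and Cbx8 over Cbx2 (-0.20), and for Rnf2 over Ring1 also without WT replicate 2 alone (-0.34). Bmi1 over its paralog Pcgf2 (Mel18) had the lowest p, with ratios of 0.23, 0.11 and -0.26 against 0.84, 1.11 and 0.17 (difference -0.68, exact p = 0.2). Adjusted over the 6 pairs, every p was 0.9.

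Other genes of the machinery were described with 1 probe set per gene, the brightest. Over 18193 genes read this way 8.66% had an unadjusted p under 0.05 and 12.8% had no overlap, and the median difference was 0.01. Of the lists that follow 0 genes passed adjustment. Of 18 other PRC1 subunits 16 were measured, 7 higher and 9 lower (median -0.053, 0.16 without WT replicates 2 and 3, and -0.014 with the mean of all probe sets per gene), with 1 at an unadjusted p under 0.05 and without overlap. This was Pcgf2, a paralog of Bmi1, which read 330, 301 and 427 in PU.1 ki/ki and 205, 97 and 176 in WT. All PU.1 ki/ki arrays were above all WT arrays (1.19 ± 0.34 SE, unadjusted p = 0.0158, adjusted p = 0.515, and 0.76 without WT replicates 2 and 3). Its other probe set read 15 to 55 and had the opposite sign (-0.21).

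The remaining named PRC1 subunits overlapped between groups. Bcorl1, a corepressor of a variant PRC1, read 50, 32 and 736 against 36, 36 and 10, so 1 PU.1 ki/ki array made its difference of 2.12. The other Bcorl1 probe set had the opposite sign. The polyhomeotic protein Phc2 read 405, 333 and 270 against 596, 367 and 1003 (-0.86, adjusted p = 0.644). L3mbtl2, of another variant complex, read 215, 152 and 126 against 167, 288 and 416 (-0.76, adjusted p = 0.661, and -0.059 without WT replicates 2 and 3).

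All 8 other PRC2 subunits were measured, 4 higher and 4 lower (median -0.055, and 0.20 with the mean of all probe sets per gene), and 0 separated the groups or had an unadjusted p under 0.05. Jarid2, which helps recruit PRC2, read 655, 1493 and 529 against 334, 613 and 364 (0.93 ± 0.48 SE, adjusted p = 0.660), with overlap through WT replicate 2. For Jarid2, 1 of the 2 other probe sets had the opposite sign. Mtf2, a Polycomb-like protein that binds CpG-rich DNA, differed by 0.30, and 1 of its 5 other probe sets had the opposite sign. Rbbp4, a histone chaperone shared with other complexes, read 6644, 7425 and 6586 against 7383, 7720 and 8292 (-0.18), and its 3 other probe sets had the opposite sign. Aebp2, a cofactor of PRC2, differed by -0.29.

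Enzymes that remove Polycomb marks and their cofactors numbered 7 measured of 7, 5 higher and 2 lower. Their median was 0.22, 0 without WT replicates 2 and 3, and 0.33 with the mean of all probe sets per gene. Of these genes 0 had an unadjusted p under 0.05 and 1 had no overlap. Asxl1, the cofactor of the H2A deubiquitinase, read 538, 553 and 1092 in PU.1 ki/ki and 465, 371 and 468 in WT (0.67 ± 0.33 SE, adjusted p = 0.650), and 1 of its 2 other probe sets had the opposite sign. Kdm6b, an H3K27 demethylase, read 1538, 665 and 852 against 963, 84 and 246, a difference of 1.81 that was -0.012 without WT replicates 2 and 3. Asxl3 read 19 to 37 (-0.49), and its other probe set had the opposite sign. Uty, on the Y chromosome, was at the minimum of 10 on 5 arrays and at 86 on WT replicate 2. That was its brightest probe set, and 1 of its 3 other probe sets had the opposite sign.

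The MLL and Trithorax counterparts, which place activating marks on histone H3 lysine 4, had 9 of 10 measured, 7 higher and 2 lower (median 0.16). That median was -0.039 without WT replicates 2 and 3, 0.49 with the mean of all probe sets per gene and 0.016 after quantile normalization. Of these 2 had an unadjusted p under 0.05, both higher, and 2 had no overlap. Ash2l, a core subunit of these methyltransferases, read 583, 547 and 491 in PU.1 ki/ki and 276, 242 and 284 in WT. The groups were far apart relative to their spread (1.01 ± 0.14 SE, adjusted p = 0.4, and 0.96 without WT replicates 2 and 3), and its other probe set had the opposite sign. Kmt2b (MLL2) read 369, 243 and 468 against 172, 171 and 251 (0.83 ± 0.31, adjusted p = 0.595), with 1 PU.1 ki/ki array below 1 WT array. Kmt2c (MLL3), the other gene without overlap, read 1289, 2432 and 1708 against 1094, 443 and 1252 (1.05 ± 0.49, adjusted p = 0.642), and 2 of its 3 other probe sets had the opposite sign. Wdr5 and Kmt2d differed by -0.34 and -0.08, and the other probe set of each had the opposite sign.

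Known Polycomb targets were dim throughout. Cdkn2a, the locus of p16 and p19 that Bmi1 silences, read 18, 20 and 18 in PU.1 ki/ki and 18, 15 and 25 in WT (-0.02 ± 0.21 SE, adjusted p = 1). Of 12 targets 11 were measured, 2 higher and 9 lower (median -0.24, and -0.053 without WT replicates 2 and 3), with 1 at an unadjusted p under 0.05 and 2 without overlap, all lower. Their summed intensity was 294 to 316 in the knock-in group and 353 to 428 in WT, a separation among values close to the table minimum. Of all named genes 52.2% were higher. Dim probe sets of the whole series leaned lower than bright ones. With dim probe sets left out, the median of all probe sets was 0.17 instead of 0.0021. The share lower at an unadjusted p under 0.05 (limma) was then 1.77% instead of 3.68%. Sox7, an endothelial and early blood factor, read 15, 20 and 17 against 30, 34 and 24 (-0.72 ± 0.19, adjusted p = 0.508). The B cell factor Pax5 read 22, 24 and 24 against 23, 63 and 40 (-0.71 ± 0.38, adjusted p = 0.661). The other Pax5 probe set had the opposite sign. Pax6, an eye and neural factor and the other target without overlap, read 31, 30 and 36 against 41, 79 and 37 (-0.60 ± 0.32, adjusted p = 0.663). For Pax6, 1 of the 4 other probe sets had the opposite sign. The 2 higher targets were Gata4 (0.06) and Wnt5a (0.02), both of which turned lower after centring each array on its median. Centring also moved the median of all named genes, from 0.008 to -0.099. The other Gata4 probe set and 2 of the 3 other Wnt5a probe sets had the opposite sign.

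**Figure D4:**
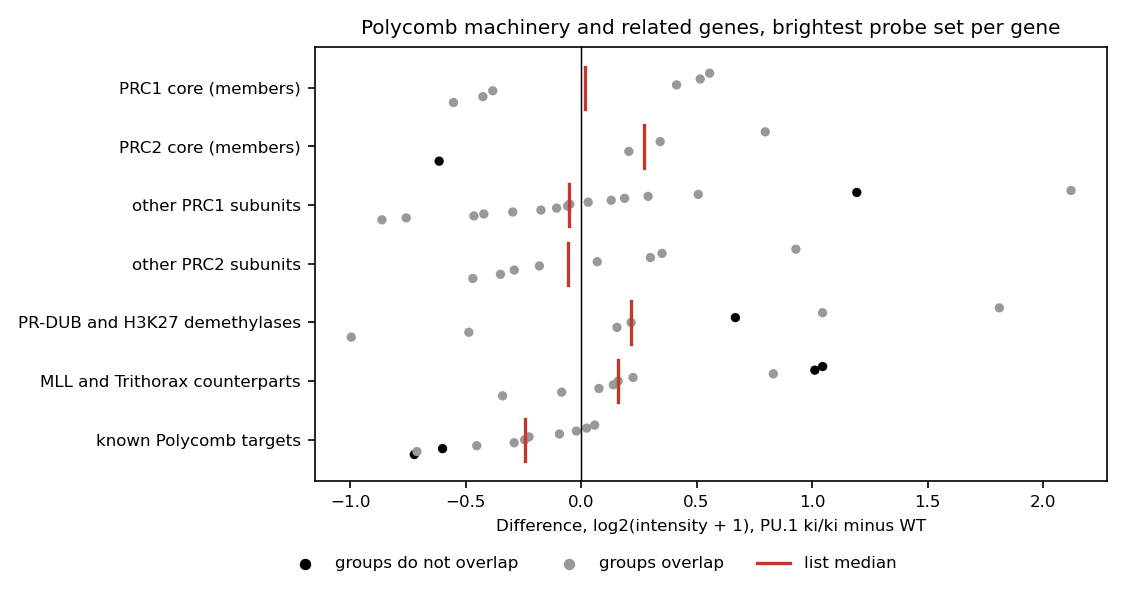
Difference between groups in log2(intensity + 1), PU.1 ki/ki minus WT, for each gene of 7 lists by its brightest probe set (points, black where the 3 values of each group do not overlap) with the list median (red bar). The medians run from -0.24 for known targets to 0.27 for the 4 PRC2 members, of which the separated one is Suz12, and the separated genes of the other lists are Pcgf2, Asxl1, Ash2l, Kmt2c, Sox7 and Pax6.

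By the brightest probe set the 6 PRC1 members were 3 higher and 3 lower (median 0.016, -0.13 after a further quantile normalization and -0.091 after centring). The median of all named genes was -0.071 after that normalization and -0.099 after centring. The 4 PRC2 members were 3 higher and 1 lower (median 0.27, and -0.13 without WT replicates 2 and 3). Markers of other cells were set beside these readings by gene and by summed intensity, and 0 of them passed adjustment. Of 6 megakaryocyte markers measured of 6, 5 were higher and 1 lower (median 0.75), and their sums were 1853 to 3813 in PU.1 ki/ki and 1298 to 1889 in WT. Vwf, the von Willebrand factor gene, read 815, 1435 and 1357 against 617, 490 and 298 without overlap (1.38 ± 0.37 SE, adjusted p = 0.508). Of 6 erythroid markers measured of 8, 2 were higher and 4 lower, and the sums overlapped at 339 to 887 against 456 to 1663. Klf1, an erythroid transcription factor gene, read 118, 123 and 159 against 42, 21 and 11 without overlap (2.57 ± 0.50 SE, adjusted p = 0.463). Hba-a1, an alpha globin gene, was lower without overlap, at 36, 47 and 36 against 65, 85 and 48 (-0.69 ± 0.26 SE, adjusted p = 0.595).

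Of 11 granulocyte and macrophage markers measured of 12, 4 were higher and 7 lower. Their sums, carried by bright genes such as Mpo and Lyz2, were 11306 to 14808 against 14885 to 22631, a narrow separation. The median level of the same markers on each array overlapped between groups, at -0.035, 0.012 and -0.45 in PU.1 ki/ki and 0.23, -0.012 and -0.39 in WT. Ctsg, the gene of a neutrophil granule protease, read 804, 822 and 806 against 3739, 1527 and 2219 without overlap (-1.52 ± 0.35 SE, adjusted p = 0.482), and Itgam, Adgre1 and C1qa read under 50 on every array. Dim probe sets of the whole series leaned lower in PU.1 ki/ki than bright ones, which bears on the dim lymphoid lists. Of 6 T and NK cell markers measured of 8, 1 was higher and 5 lower. The sums were 163 to 169 against 222 to 334. These are low for 6 genes above a table minimum of 10, and Cd3e, a T cell receptor chain gene, had the only separated values (43, 32 and 58 against 76, 98 and 150). Of 6 B cell markers measured of 7, 1 was higher and 5 lower. The sums overlapped at 365 to 451 against 345 to 831, with Cd79a alone separated and lower (21, 27 and 26 against 32, 42 and 28). No marker was at the table minimum on all 6 arrays. The part of other cells in the Ezh1 and Suz12 readings was not tested.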

How the data were processed

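Biotin-labelled cRNA of 6 HSC samples was measured on 1-colour Affymetrix arrays. The intensities deposited by the authors, 1 per probe set and array, came from RMA per the submitters' processing notes (no version is named in the labels). Values are linear, in whole numbers, the lowest 10 and the highest 27574, and how they were taken from RMA's log scale is not described. Groups and replicate numbers are those of the sample titles, and 0 value columns were left unused. A description label naming embryos goes against every other label and was set aside.

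After 64 control probe sets were left out, log2(intensity + 1) of 45037 probe sets was fitted with limma 3.58.1 (R 4.3.3), genotype as the only term, with Benjamini-Hochberg adjustment over all of them and a threshold of 0.05. Symbols came from GEO's platform annotation, which gave 1 symbol for 34945 probe sets, several for 932 and none for 9160. The rule named every member probe set and, from each other list of the Polycomb machinery, its counterparts and its targets, the 2 higher and 2 lower genes of lowest p, with Spi1, Cdkn2a, Pcgf2, Mki67 and the Gapdh and beta-actin controls. Cell type and proliferation lists were given by counts, with medians, levels on each array or sums. Kmt2c, Pax6, Slamf1, Kit, Procr, Tek and the cell type markers named were named after their values were seen. Members and lists were chosen with earlier results of these data known. The number of arrays limits the precision. Same-numbered arrays did not deviate together (correlations of -0.016, 0.021 and -0.017). The limma fit was tested on simulated data with independent noise, and the overlap rule on fixed rows of values. Alternatives were further normalization, other pseudocounts, a dim filter, other variance models and arrays left out. Figures used matplotlib 3.10.9.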

Additional observations from a re-analysis of the deposited data

How the results depend on the processing

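No probe set passed adjustment under any of the 15 alternatives, so the count of 0 held throughout. At an unadjusted p under 0.05 the members numbered 1 higher and 2 lower. The lower count was 1 with dim probe sets left out, 1 with a trended and robust variance prior and 1 with a replicate block, and 1 to 2 with any single array dropped. The higher count was 2 without WT replicates 2 and 3 (Ezh1 1449023_a_at and 1429629_at), and 1 to 3 with any single array dropped, the 3 being Bmi1 1417493_at, Ezh2 1416544_at and Ezh1 1418290_a_at without WT replicate 1, where 15.9% of all probe sets had such a p. Members without overlap were 1 higher and 2 lower, 6 and 6 without WT replicates 2 and 3 (51.5% of all probe sets), and 1 to 6 and 2 to 4 with any single array dropped (18.2 to 30.3% of all probe sets, the highest without WT replicate 1). The replicate block changed no call after adjustment. The split of all probe sets at an unadjusted p under 0.05 was 4.6% higher and 3.68% lower, and 3.46% and 4.98% after quantile normalization of the arrays. With array medians centred, the median of all probe sets was -0.11 and that of the members -0.14.

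Of the 28 member differences, 6 kept their sign in every alternative that was run on them: Ezh1 1418290_a_at and 1429629_at, Suz12 1420021_s_at and 1452364_at, Ring1 1422647_at and Rnf2 1448041_at. Ezh1 1429629_at and Rnf2 1448041_at are dim and were not in the fit that left dim probe sets out. For the others the cause of a change of sign was not tested. Without WT replicates 2 and 3 the sign turned for Bmi1 1417493_at (-0.045), Rnf2 1451519_at (-0.74) and 1448043_x_at (-0.021), Cbx2 1434116_at (0.035) and 1422059_at (-0.32), and Cbx7 1420039_s_at (0.36), 1449713_at (0.11) and 1433557_at (0.59). It also turned for Cbx8 1419198_at (-0.16) and 1419199_at (0.17), Ezh2 1416544_at (-0.26), Ezh1 1429630_at (0.32), Eed 1448653_at (-0.0019), and Suz12 1449661_at (-0.12) and 1420020_at (-0.45). Rnf2 1448043_x_at turned to -0.15 after quantile normalization and -0.083 after centring. With single arrays left out, the ranges that crossed 0 were -0.56 to 0.15 for Bmi1 1448733_at, and for Rnf2 -0.42 to 0.99 (1451519_at), -0.45 to 0.024 (1424873_at), -0.26 to 0.30 (1448043_x_at) and -0.088 to 1.12 (1448042_s_at). They were -0.999 to 0.19 (1434116_at) and -0.24 to 0.78 (1422059_at) for Cbx2, -0.53 to 0.19 for Cbx7 1433557_at, and -0.010 to 0.92 (1419198_at) and -0.35 to 0.090 (1419199_at) for Cbx8. They were -0.12 to 1.57 (1449023_a_at) and -0.49 to 0.39 (1429630_at) for Ezh1 and -0.13 to 0.10 for Eed 1453830_at. For Suz12 they were -0.50 to 0.32 (1420022_s_at), -0.74 to 0.087 (1427253_s_at) and -0.097 to 0.81 (1420020_at).

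Of the paralog ratios, Ezh1 over Ezh2 went from 0.46 to 2.89, Rnf2 over Ring1 turned to -0.70, Cbx7 over Cbx8 to 0.53 and Cbx8 over Cbx2 to -0.20 without WT replicates 2 and 3, and Cbx7 over Cbx2 to -0.31 with the mean of all probe sets. With single arrays left out the ranges were -0.76 to 1.28 (Ezh1 over Ezh2), -0.34 to 1.54 (Rnf2 over Ring1) and -0.50 to 0.85 (Cbx7 over Cbx2). The median of other PRC2 subunits turned to 0.20 with the mean of all probe sets. Probe sets near the minimum of 10, such as those of Cbx8 and Cdkn2a, limit what a difference can show.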
